A study of Mus musculus with 48 samples.

Results

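The 10 genes described here carry dietary fat and cholesterol from the lumen of the small intestine into chylomicrons. They were chosen by name, as Cd36, Fabp1, Fabp2, Npc1l1, Scarb1, Mogat2, Dgat1, Mttp, Apob and Apoa4, with 1 row for each Ensembl identifier, out of 15541 genes listed over 6 tissue tables. All 10 were listed in the duodenum, jejunum and ileum. In the liver 8 were listed (without Mogat2 and Npc1l1), in subcutaneous white adipose tissue (WAT) 6 (Cd36, Scarb1, Mogat2, Dgat1, Mttp and Apoa4) and in gastrocnemius muscle 5 (Cd36, Npc1l1, Scarb1, Dgat1 and Mttp).

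The libraries came from male C57Bl6 mice made obese on a high fat diet and killed at day 9 after Roux-en-Y gastric bypass (RYGB), in which food leaves a small gastric pouch straight into the jejunum, or after Sham surgery. Both groups received a liquid elemental diet after the operation and were fasted overnight before they were killed in the morning. The 48 RNA-seq libraries comprised 3 RYGB and 4 Sham libraries of duodenal villi, 3 and 4 of jejunal villi, 5 and 5 of ileal villi, and 4 and 4 each of liver, WAT and muscle. The villi were scraped off after chilling in EDTA, and neither the age of the mice nor the limb of the bypassed gut that gave the jejunal villi is stated in the labels. The labels also do not state that the libraries of a group came from separate mice, so the p-values below measure only the spread between these libraries.

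In the enterocyte, fatty acids and monoacylglycerol from digested fat cross the brush border, are carried in the cytosol by fatty acid binding proteins, and are rebuilt into triglyceride in the endoplasmic reticulum. Microsomal triglyceride transfer protein loads this triglyceride onto apolipoprotein B, and the particle leaves the cell as a chylomicron that also carries apolipoprotein A-IV. Cholesterol enters by a route of its own and is esterified before it joins the same particle.

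The promoters of the 4 genes that were called in an intestinal segment are shown first, since the values below are about how much of their RNA the villi held. Each is 300 bases of the mouse genome (RefSeq, GRCm38.p6), from 250 bases before the start of the transcript to 50 bases after it, read along the gene's own strand. Capitals mark AGGTCA, the core motif of many nuclear receptor sites, found here on the opposite strand and so printed as its reverse complement.
Cd36 (chr5:17835847-17836146, minus strand): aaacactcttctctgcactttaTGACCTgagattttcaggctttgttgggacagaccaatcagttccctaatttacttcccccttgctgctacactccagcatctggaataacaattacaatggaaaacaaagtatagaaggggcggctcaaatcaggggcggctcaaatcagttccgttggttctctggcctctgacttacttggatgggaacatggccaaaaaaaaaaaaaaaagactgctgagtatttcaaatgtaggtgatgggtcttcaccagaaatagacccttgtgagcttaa
Fabp1 (chr6:71199629-71199928, plus strand): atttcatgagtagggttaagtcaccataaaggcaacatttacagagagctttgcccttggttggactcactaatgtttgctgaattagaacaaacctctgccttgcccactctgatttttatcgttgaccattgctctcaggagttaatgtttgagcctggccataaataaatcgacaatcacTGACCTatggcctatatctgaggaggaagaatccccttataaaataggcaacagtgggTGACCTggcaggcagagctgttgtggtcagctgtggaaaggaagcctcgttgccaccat
Npc1l1 (chr11:6230196-6230495, minus strand): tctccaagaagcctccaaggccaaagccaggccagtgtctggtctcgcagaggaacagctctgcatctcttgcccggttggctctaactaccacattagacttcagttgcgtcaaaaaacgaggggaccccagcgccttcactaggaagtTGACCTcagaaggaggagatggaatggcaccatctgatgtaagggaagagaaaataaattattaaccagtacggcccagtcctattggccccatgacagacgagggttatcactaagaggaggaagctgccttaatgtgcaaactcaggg
Apoa4 (chr9:46240594-46240893, plus strand): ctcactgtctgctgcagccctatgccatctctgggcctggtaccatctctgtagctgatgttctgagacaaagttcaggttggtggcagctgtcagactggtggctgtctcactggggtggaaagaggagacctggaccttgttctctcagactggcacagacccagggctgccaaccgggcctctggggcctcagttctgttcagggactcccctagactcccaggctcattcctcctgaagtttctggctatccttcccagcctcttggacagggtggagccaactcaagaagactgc
The first base of the motif lay at -228 from the transcript start in Cd36, at -67 and -9 in Fabp1, and at -100 in Npc1l1, and the window of Apoa4 held no match. The GENCODE gene of Cd36 spans 17781690 to 17888801 on chromosome 5, so this RefSeq start lies inside it. The RefSeq starts of Fabp1 and Apoa4 also lie inside their GENCODE genes, which begin at 71199827 and 46240696. That of Npc1l1 lies before its GENCODE gene, which begins at 6230143 on the minus strand. The positions above therefore hold for the RefSeq starts only. Of the 10 genes, 7 had a promoter in the RefSeq table. On either strand, AGGTCA occurred in 3 of these 7 and in 16.3% of all 32851 promoters of that length. Exact matches to the paired motif AGGTCANAGGTCA (0.0396% of all promoters), to CAAAGTCCA of the HNF4A site (0.475%), to AGATAA of the GATA site (11.2%) and to GTTAATNATTAAC of the HNF1 site (0.00913%) occurred in none of the 7 windows, which says only that these letters are not there.

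The unit is CPM, a read count per gene scaled to the same total in every library, deposited in steps of 0.1 CPM and in a separate table for each tissue. For each tissue, limma set the RYGB against the Sham libraries on log2(CPM + 1), using the genes that averaged at least 1 CPM, and a gene was called when its Benjamini-Hochberg adjusted p was under 0.05 and its fold change at least 1.5. The depth of the libraries is unknown, so no counting interval could be given. The duodenal libraries stood apart from each other in Slc40a1, the iron exporter of the proximal gut. It read 2468, 578, 856 and 26.9 CPM in Sham 1 to 4 and 25.2, 350 and 409 CPM in RYGB 1 to 3. Gata4, the other proximal marker listed, spread far less. Its values were 233, 214, 136 and 150 CPM in Sham 1 to 4 and 167, 247 and 224 CPM in RYGB 1 to 3. Of the 3 ileal enterocyte markers, Fabp6 and Slc10a2 were low in the libraries labelled ileum. Fabp6 read 0 to 50.5 CPM and Slc10a2 0.2 to 53.7 CPM over the 10 libraries, against 0.3 to 2.5 CPM of Slc10a2 in the jejunum. Slc51a read 247 to 698 CPM, against 213 to 296 CPM in the jejunum and 120 to 546 CPM in the duodenum. The ileal libraries also held 3032 to 6704 CPM of Lct, the brush border lactase. Their Gata4, at 105 to 183 CPM, overlapped the 122 to 239 CPM of the jejunum. The summed CPM of 7 villus enterocyte genes overlapped between the groups in every segment, for example 35273 to 36303 CPM in jejunal RYGB and 28844 to 43717 CPM in jejunal Sham libraries. Single genes of that list went opposite ways in the jejunum. Lct (1448 to 1640 against 3255 to 5394 CPM) and the brush border phosphatase gene Alpi (765 to 1641 against 1762 to 3039 CPM) were lower in all RYGB than in all Sham libraries, and the glucose transporter gene Slc5a1 (6417 to 8002 against 3959 to 4823 CPM) and, narrowly, Vil1 (4151 to 4329 against 3120 to 4150 CPM) were higher. In the ileum Lct alone of the 7 did not overlap (3032 to 3423 against 4358 to 6704 CPM). The part of these markers in the differences below was not tested. All duodenal libraries carried the lane label 2, the jejunal ones 1 except RYGB 2 (lane 2), and the ileal Sham libraries 2 or 3 against 1 for ileal RYGB, so that in the ileum the effects of lane and of surgery cannot be told apart.

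Cd36 was much lower after RYGB in the jejunum and ileum, and its fall was the largest change among the 10 genes. Apoa4 fell in the jejunum, Npc1l1 fell in the ileum and Fabp1 rose in the ileum. In the jejunum, 2 of the 10 genes were called, both lower, where 9.75% of all 10854 genes tested were called. In the ileum, 3 of 10 were called, 1 higher and 2 lower, against 6.05% of 10735. In the duodenum limma called none of the 10 (2 had an unadjusted p under 0.05), and it called 1 of 10850 genes (0.00922%, with 2040 at an unadjusted p under 0.05). The groups did not overlap for 4 of the 10 in the jejunum (22.2% of all genes), for 2 in the ileum (9.34%) and for 2 in the duodenum (15.6%), and in each of these cases the RYGB libraries were the lower ones. The median log2 fold change of the 10 was -0.68 in the jejunum, -0.02 in the ileum and -0.32 in the duodenum, and that of all genes tested was -0.04, -0.09 and 0.12.

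**Figure D1:**
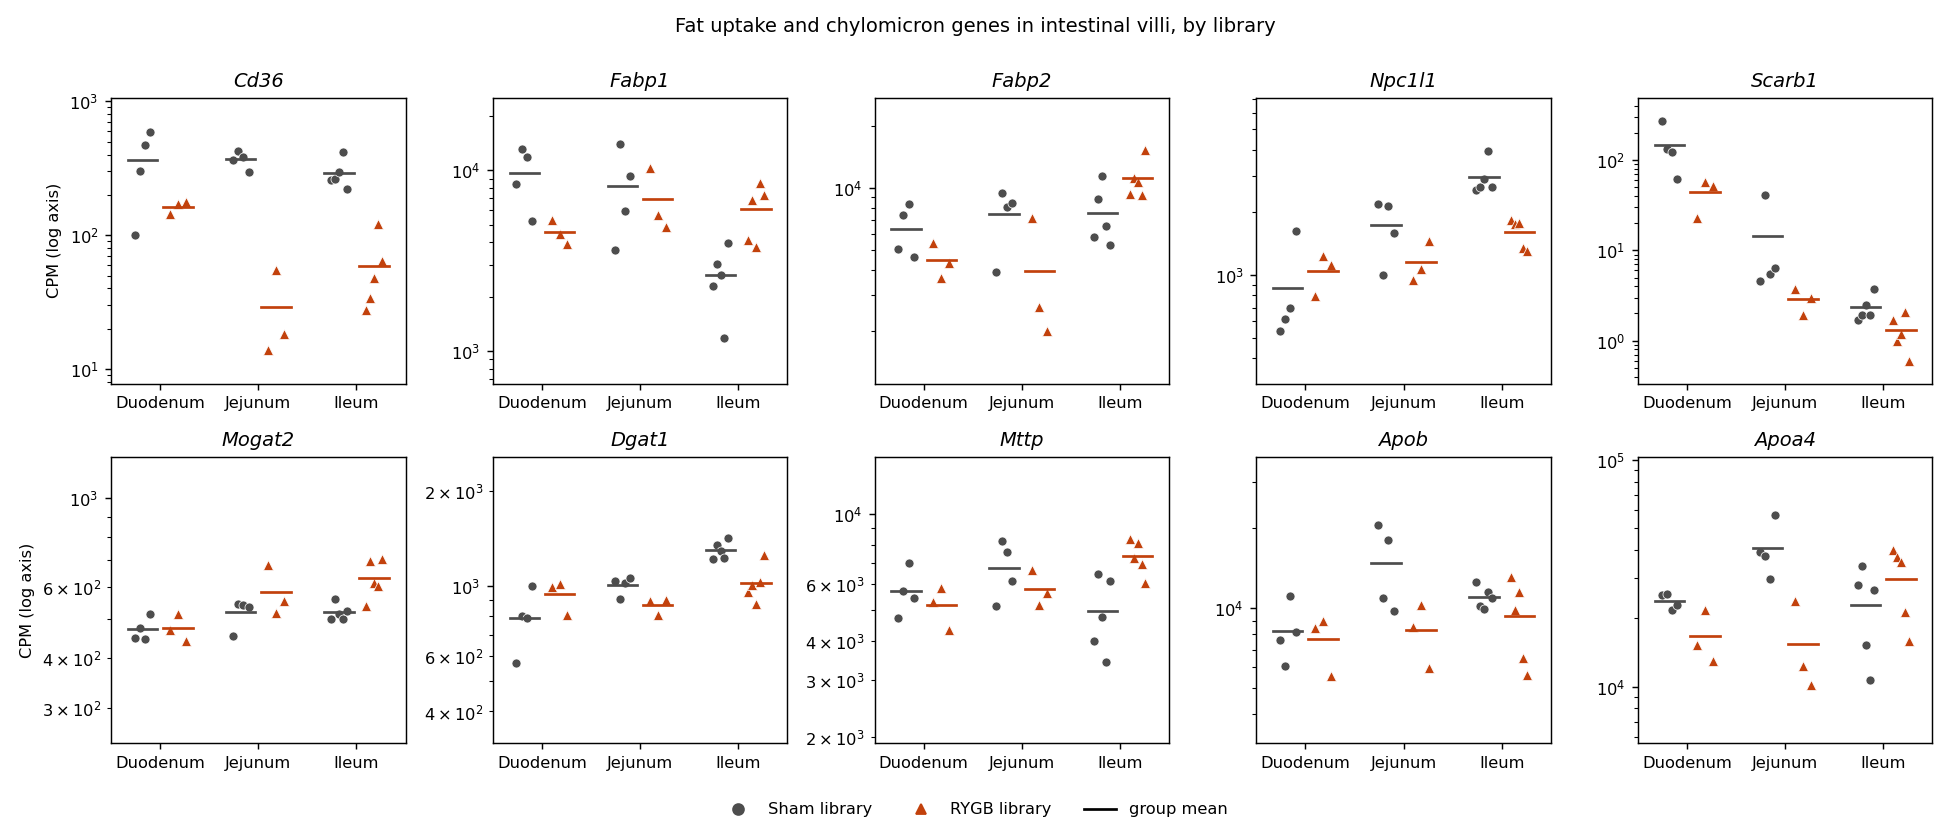
CPM of each of the 10 genes (log axis, scaled for each gene) in each library of the duodenum, jejunum and ileum, with Sham libraries as circles, RYGB libraries as triangles and the group mean as a line. The RYGB libraries of Cd36 lie below every Sham library in the jejunum (14.0 to 55.3 against 298 to 427 CPM) and the ileum (27.4 to 122 against 220 to 415 CPM).

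Cd36 encodes the scavenger receptor of the brush border that binds long-chain fatty acids. In the jejunum it read 14.0, 55.3 and 18.4 CPM in the RYGB libraries and 364, 427, 382 and 298 CPM in the Sham libraries. The lowest Sham library lay far above the highest RYGB library. The means were 29.2 ± 22.7 CPM (SD, n = 3) and 368 ± 53.4 CPM (SD, n = 4), and the log2 fold change was -3.85 (SE 0.38, limma adjusted p = 0.000693), a 12.6-fold difference of the means.

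In the ileum Cd36 read 27.4, 34.0, 47.9, 122 and 64.5 CPM after RYGB and 258, 262, 295, 415 and 220 CPM after Sham surgery. The groups again did not overlap, and RYGB 4 was the highest of its group. The log2 fold change was -2.44 (SE 0.33, limma adjusted p = 0.00451). Over all alternatives run it lay between -2.75 and -2.22 in the ileum and between -4.42 and -3.47 in the jejunum, and Cd36 stayed called in each.

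In the duodenum Cd36 read 143, 172 and 176 CPM after RYGB and 99.9, 303, 468 and 591 CPM after Sham surgery. Sham 1 lay under the 3 RYGB libraries and the other Sham libraries lay above them, so that the groups overlapped and the difference did not pass the test (log2 fold change -0.89, SE 0.53, limma adjusted p = 0.395). Cd36 is also a gene of capillary endothelium, and in bulk samples fewer cells of a type and less RNA per cell cannot be told apart. Of 5 capillary endothelial markers only Pecam1 was listed in the duodenum (0.6 to 5.4 CPM) and jejunum (0.3 to 1.6 CPM), and none in the ileum. Of 7 leukocyte markers 3 were listed, and their sum was 7.5 to 17.6 CPM in jejunal RYGB against 23.3 to 29.6 CPM in Sham libraries, and 5.5 to 16.4 against 16.4 to 43.6 CPM in the ileum. In the duodenum it went the other way, at 28.7 to 74.4 CPM after RYGB and 10.9 to 29.8 CPM after Sham surgery. Their part in the difference of Cd36 was not tested.

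Fabp1 and Fabp2 encode the liver and the intestinal fatty acid binding protein, the abundant cytosolic carriers of fatty acids in enterocytes. Ileal Fabp1 read 4105, 6855, 3773, 8462 and 7265 CPM after RYGB and 2284, 3029, 2636, 1190 and 3986 CPM after Sham surgery. Only RYGB 3 lay within the range of the Sham libraries. The means were 6092 ± 2055 CPM (SD, n = 5) and 2625 ± 1024 CPM (SD, n = 5), and the log2 fold change was 1.25 (SE 0.33, limma adjusted p = 0.0391). This call was close to the threshold, and it was lost without any 1 of 7 of the 10 libraries (RYGB 2, 4 or 5 and Sham 1, 2, 3 or 4), with an adjusted p of up to 0.0906. A fit that paired libraries by replicate number, which the labels do not state, lost it too.

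In the duodenum Fabp1 leaned the other way, with 5318, 4418 and 3919 CPM after RYGB against 8390, 13085, 11878 and 5278 CPM after Sham surgery. Sham 4 lay within the RYGB range, and the log2 fold change of -1.01 (SE 0.38) had a limma adjusted p of 0.216. The jejunal groups were spread widely and overlapped, at 10294, 5650 and 4852 CPM against 3609, 14000, 5990 and 9248 CPM (log2 fold change -0.15, adjusted p = 0.881). Effects were not compared between segments by a test, since each segment was fitted on its own.

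Fabp2 was called in no segment. Its jejunal values were 7144, 2631 and 2002 CPM after RYGB and 3905, 9518, 8073 and 8463 CPM after Sham surgery, with a log2 fold change of -1.08 (SE 0.45, limma adjusted p = 0.170). RYGB 1 lay among the Sham libraries and Sham 1 among the RYGB libraries. Without RYGB 1 the log2 fold change was -1.63 and passed the test (adjusted p = 0.0285), and without RYGB 3 it was -0.71 (adjusted p = 0.381). In the ileum the group means were 11178 ± 2477 and 7576 ± 2596 CPM (SD, n = 5 each; log2 fold change 0.60, adjusted p = 0.152), and in the duodenum they were 4437 ± 876 (n = 3) and 6353 ± 1819 CPM (n = 4; log2 fold change -0.49, adjusted p = 0.439).

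Npc1l1, the brush border transporter that takes up cholesterol and plant sterols, fell in the ileum. It read 1832, 1752, 1787, 1347 and 1303 CPM after RYGB and 2573, 2653, 2901, 3947 and 2655 CPM after Sham surgery. The highest RYGB library lay well under the lowest Sham library, and Sham 4 stood above its group. The log2 fold change was -0.87 (SE 0.16, limma adjusted p = 0.0125), and the call was lost when libraries were scaled by the median ratio of genes (log2 fold change -0.77, adjusted p = 0.0560). In the jejunum it read 944, 1066 and 1455 CPM against 2205, 1001, 2159 and 1597 CPM, where Sham 2 lay within the RYGB range (log2 fold change -0.55, adjusted p = 0.290). In the duodenum the means were 1048 ± 227 (n = 3) and 870 ± 505 CPM (n = 4), with Sham 4 at 1622 CPM above all other libraries (log2 fold change 0.39, adjusted p = 0.603).

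Scarb1 encodes the receptor SR-BI, which binds lipoproteins and moves cholesterol in the brush border and the liver. It was the member with the steepest gradient along the gut. In the duodenum it read 23.0, 57.1 and 51.8 CPM after RYGB and 273, 134, 122 and 61.1 CPM after Sham surgery. No RYGB library reached the lowest Sham library, Sham 4, yet the log2 fold change of -1.63 (SE 0.49) had a limma adjusted p of 0.161. RYGB 1 and Sham 4, the libraries with the lowest Slc40a1, also had the lowest Scarb1 of their groups. Without Sham 4 the log2 fold change was -1.98 and was called (adjusted p = 0.0326), in a fit that called 757 genes of the duodenum in place of 1. Without RYGB 1 it was -1.23 (adjusted p = 0.365), and among the 5 libraries with at least 100 CPM of Slc40a1 it was -1.58 (adjusted p = 0.0659). The part of the sampled position along the gut in this difference was not tested.

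Jejunal Scarb1 was far lower, at 3.7, 1.9 and 3.0 CPM after RYGB and 4.6, 41.5, 5.5 and 6.4 CPM after Sham surgery. The groups did not overlap, and Sham 2 stood well above the other Sham libraries. That library also held the most Slc40a1 of the jejunum (21.1 CPM, against 0.7 to 7.1 CPM in the others). The log2 fold change was -1.45 (SE 0.61, limma adjusted p = 0.177), and without Sham 2 it was -0.77 (adjusted p = 0.115). In the ileum Scarb1 was near the lower limit of the tables, at 0.6 to 2.1 CPM after RYGB and 1.7 to 3.7 CPM after Sham surgery (log2 fold change -0.53, adjusted p = 0.132).

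**Figure D2:**
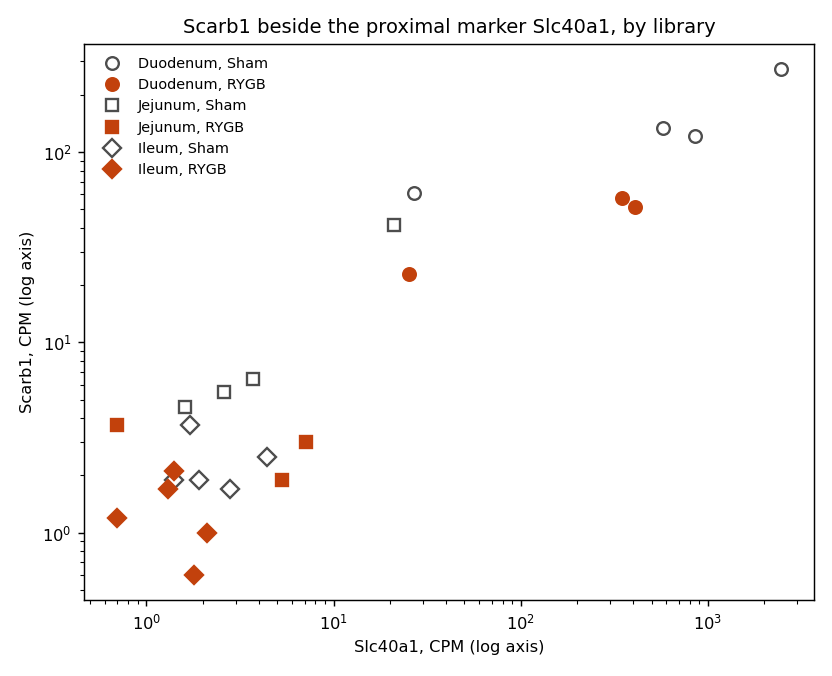
CPM of Scarb1 (vertical log axis) against CPM of the proximal gut gene Slc40a1 (horizontal log axis), 1 point for each of the 24 intestinal libraries, with circles for duodenum, squares for jejunum, diamonds for ileum, open symbols for Sham and filled symbols for RYGB. Jejunal Sham 2 (21.1 CPM of Slc40a1, 41.5 CPM of Scarb1) lies beside the duodenal libraries with the least Slc40a1 (25.2 and 26.9 CPM).

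The enzymes that rebuild triglyceride were called in no segment. Mogat2 joins a fatty acid to monoacylglycerol, and Dgat1 adds the last fatty acid. Duodenal Mogat2 read 469, 514 and 440 CPM after RYGB and 448, 474, 446 and 514 CPM after Sham surgery, and the log2 fold change of 0.01 had a 95% confidence interval of -0.31 to 0.33. In the jejunum it read 682, 518 and 554 CPM against 454, 545, 540 and 536 CPM, with Sham 1 under the other Sham libraries (log2 fold change 0.17, interval -0.21 to 0.54). The ileal means of 631 ± 69.9 and 519 ± 25.2 CPM (SD, n = 5 each) differed by 0.28 on the log2 scale (interval 0.05 to 0.50, limma adjusted p = 0.116). In each of the segments the interval of Mogat2 therefore ended at or below 0.54.

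Ileal Dgat1 read 957, 1004, 876, 1032 and 1249 CPM after RYGB and 1214, 1350, 1295, 1224 and 1421 CPM after Sham surgery. RYGB 5 alone reached the Sham range, and the log2 fold change of -0.35 (SE 0.12) had a limma adjusted p of 0.0871. In the jejunum the 3 RYGB libraries (898, 811 and 900 CPM) lay just under the 4 Sham libraries (1035, 906, 1023 and 1061 CPM), with a log2 fold change of -0.21 and an interval of -0.56 to 0.15. The duodenal difference had the other sign (log2 fold change 0.27, interval -0.23 to 0.77).

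Mttp encodes the large subunit of the microsomal triglyceride transfer protein, and Apob the apolipoprotein that frames the chylomicron. Ileal Mttp read 8347, 7267, 8110, 6943 and 6079 CPM after RYGB and 3993, 6475, 4739, 3429 and 6165 CPM after Sham surgery. Only RYGB 5 reached into the Sham range, and the log2 fold change of 0.60 (SE 0.21) missed the threshold at a limma adjusted p of 0.0912. In the duodenum and jejunum Mttp differed by -0.15 (interval -0.78 to 0.48) and by -0.20 (interval -0.73 to 0.33) on the log2 scale.

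Jejunal Apob read 8527, 10300 and 5943 CPM after RYGB and 20606, 10929, 18156 and 9776 CPM after Sham surgery. RYGB 2 exceeded Sham 4, and the log2 fold change of -0.81 (SE 0.33) had a limma adjusted p of 0.166. In the ileum RYGB 4 and 5 (6491 and 5628 CPM) lay under the other 3 RYGB libraries (9902 to 13161 CPM), while the Sham libraries held 9966 to 12520 CPM (log2 fold change -0.31, adjusted p = 0.461). The duodenal means were 7655 ± 1809 (n = 3) and 8242 ± 2095 CPM (n = 4; log2 fold change -0.10, adjusted p = 0.902).

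Apoa4 encodes apolipoprotein A-IV, which enterocytes secrete on chylomicrons when they absorb fat. In the jejunum it read 23857, 12308 and 10108 CPM after RYGB and 39146, 37520, 29793 and 57052 CPM after Sham surgery. All RYGB libraries lay under all Sham libraries. The means of 15424 ± 7385 CPM (SD, n = 3) and 40878 ± 11529 CPM (SD, n = 4) differed by -1.47 on the log2 scale (SE 0.36, limma adjusted p = 0.0337), a 2.65-fold difference of the means. The call was lost without RYGB 2, RYGB 3, Sham 1 or Sham 4 (adjusted p of up to 0.151, without RYGB 2) and when libraries were scaled by the median ratio (adjusted p = 0.0651). It was also lost in a fit that paired libraries by replicate number, a pairing the labels do not state.

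In the duodenum Apoa4 read 15312, 21713 and 13000 CPM after RYGB and 25312, 25594, 21866 and 22821 CPM after Sham surgery. The groups just failed to touch, and the log2 fold change of -0.55 (SE 0.40) had a limma adjusted p of 0.483. Ileal Apoa4 spread over a wide range in both groups, from 15816 to 40038 CPM after RYGB and from 10666 to 33939 CPM after Sham surgery (log2 fold change 0.42, adjusted p = 0.521).

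**Figure D3:**
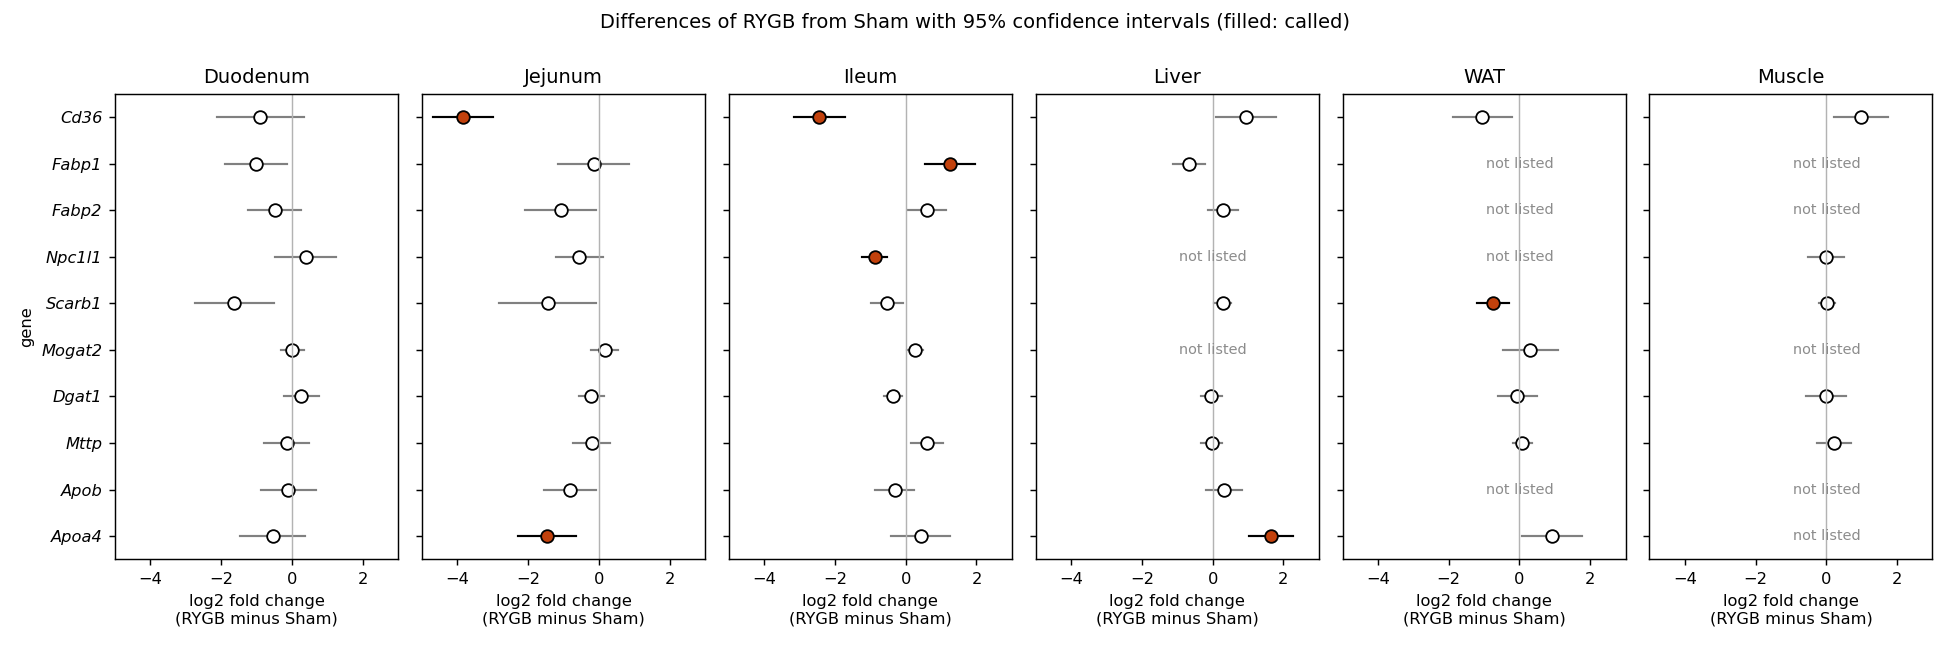
Log2 fold change of RYGB minus Sham (horizontal axis) for each of the 10 genes in the 6 tissues, with 95% confidence intervals from limma as lines, filled circles for genes called and open circles for the rest. Cd36 lies at -3.85 in the jejunum and -2.44 in the ileum, and Apoa4 lies at -1.47 in the jejunum and at 1.65 in the liver.

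The other genes of the same pathway were read from 5 lists, which together hold 46 genes. In the jejunum 7 of 45 tested genes were called (2 higher and 5 lower), in the ileum 1 of 44 (higher), and in the duodenum limma called none of 45 (8 had an unadjusted p under 0.05). Their median log2 fold changes were -0.14, 0.08 and -0.01, with the all-gene shares and medians as given above.

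Of 8 genes of fatty acid uptake and activation, Slc27a2, a fatty acid transport protein with acyl-CoA synthetase activity, fell in the jejunum from 330 ± 82.8 (SD, n = 4) to 40.5 ± 5.05 CPM (SD, n = 3), a log2 fold change of -2.97 (limma adjusted p = 0.000262). Acsl4, an acyl-CoA synthetase with a preference for arachidonic acid, rose from 1.40 ± 1.08 to 5.73 ± 2.68 CPM (log2 fold change 1.49, adjusted p = 0.0369). Its RYGB libraries did not all lie above its Sham libraries, and both groups were near the lower limit of the table. The fatty acid transporter Slc27a4 was not called (log2 fold change -0.68). No gene of triglyceride resynthesis and lipid droplets was called by limma in any segment (of 10 tested in each, 1 in the duodenum, 1 in the jejunum and 4 in the ileum had an unadjusted p under 0.05), and the lipid droplet coat gene Plin2 differed by -0.96 in the jejunum and by 0.61 in the ileum on the log2 scale.

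Among 7 sterol genes, Abcg5 and Abcg8, whose products form the transporter that returns sterols to the lumen, fell together in the jejunum. Abcg5 went from 930 ± 161 to 468 ± 92.7 CPM (log2 fold change -0.99, limma adjusted p = 0.0182) and Abcg8 from 724 ± 132 to 304 ± 57.3 CPM (log2 fold change -1.25, adjusted p = 0.00642). Each of these RYGB means rests on 3 libraries and each Sham mean on 4.

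Among 12 genes of chylomicron proteins and assembly, 1 was called in each of the distal segments. In the jejunum it was Apobec1, the enzyme that edits Apob RNA (82.3 ± 20.4 to 175 ± 55.8 CPM, log2 fold change 1.06, limma adjusted p = 0.0274). In the ileum it was Sar1b, a GTPase needed for the export of chylomicrons (185 ± 32.1 to 277 ± 41.4 CPM, n = 5 each, log2 fold change 0.59, adjusted p = 0.0299). Among 8 transcription factors of enterocyte lipid genes, Hnf4g and Ppara fell in the jejunum, by 0.78 and 1.02 on the log2 scale (adjusted p = 0.0454 and 0.0359). Hnf4a, the closest relative of Hnf4g, was not called (log2 fold change 0.68, limma adjusted p = 0.0712), though all its RYGB libraries lay above all its Sham libraries.

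**Figure D4:**
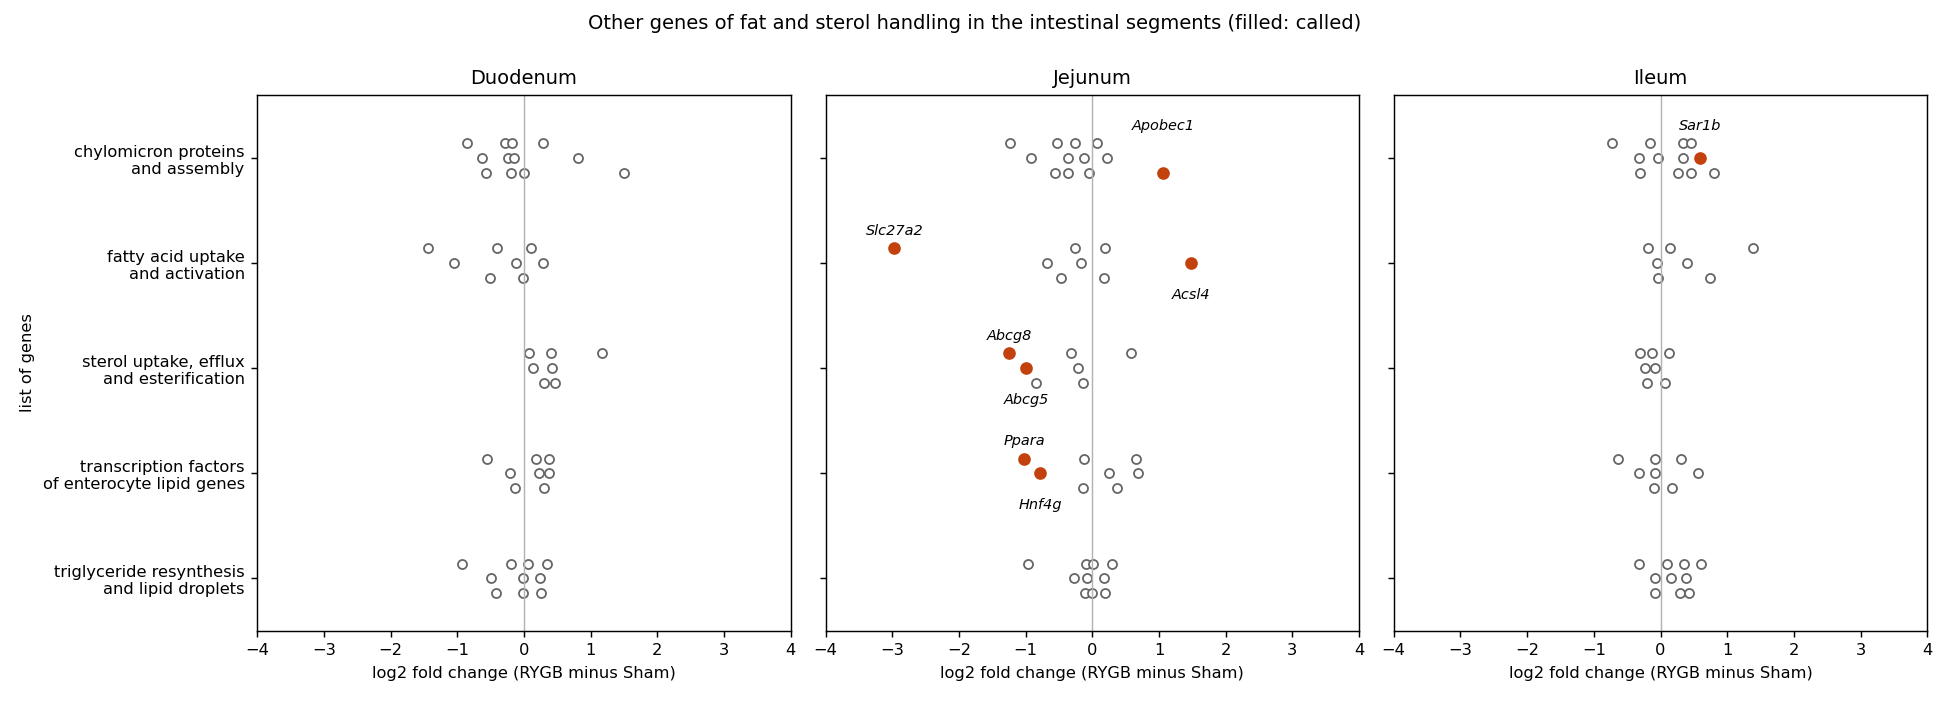
Log2 fold change of RYGB minus Sham (horizontal axis) of each gene of the 5 pathway lists (rows) in the duodenum, jejunum and ileum, with filled, named points for genes called. Slc27a2 at -2.97 in the jejunum is the farthest from 0.

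Segments are named here by their labels, and the libraries labelled ileum held little Fabp6 and Slc10a2, as given above. Their levels were read from separately normalized tables and so without a test. Along the gut of the Sham mice, Scarb1 went from 148 CPM in the duodenum to 14.5 in the jejunum and 2.34 in the ileum, with no overlap between neighbours. Npc1l1 went the other way, from 870 to 1740 and 2946 CPM, and its jejunal and ileal ranges did not overlap. Apoa4 was highest in the jejunum (40878 CPM), with no overlap with the duodenum (23898 CPM), while the range of the ileum (22900 CPM) overlapped both others. Dgat1 was highest in the ileum (1301 CPM), apart from the jejunum (1006 CPM). For Cd36, Fabp1, Fabp2, Apob, Mttp and Mogat2 every neighbouring pair of Sham segments overlapped. After RYGB the order of Cd36 was duodenum (164 CPM), ileum (59.1 CPM) and jejunum (29.2 CPM), with a gap between the first and the second only. Fabp2 after RYGB was highest in the ileum (11178 CPM), apart from the duodenum (4437 CPM).

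Over the 24 intestinal libraries, which share segment and surgery as well as tissue, the genes of this set followed each other unevenly on log2(CPM + 1). The highest Pearson correlation was that of Dgat1 with Npc1l1 (r = 0.81, and 0.36 once the mean of each segment and surgery group was taken away). Apoa4 and Mttp followed (r = 0.57, within groups 0.51), then Fabp1 and Mttp (r = 0.57, within groups 0.53). The most negative was that of Fabp1 with Npc1l1 (r = -0.79, within groups -0.77), which was also the strongest within groups, followed by Npc1l1 with Scarb1 (r = -0.70, within groups -0.58). Among 10439 genes, the non-member most like Scarb1 was Nat8f2 (r = 0.97), the one most like Npc1l1 was Tpcn1 (r = 0.94), and the one most like Fabp1 was Sae1 (r = 0.93). Dgat1 was nearest to Ppp2r5d (r = 0.92), Cd36 to Ghr (r = 0.88), Apoa4 to Cgref1 (r = 0.86), Mttp to Yif1a (r = 0.86), Mogat2 to Rhbg (r = 0.86), Apob to Ndst1 (r = 0.81) and Fabp2 to Flvcr2 (r = 0.80). Within groups the correlation of Cd36 with Ghr was 0.38, so most of its likeness lay between the groups.

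Outside the gut, Apoa4 rose in the liver and Scarb1 fell in WAT, and none of the other values passed the test. In the liver 1 of 8 genes was called, where 7.08% of 11807 genes were. In WAT 1 of 6 was called, against 24.1% of 13379. In muscle limma called none of 5 (1 had an unadjusted p under 0.05), and it called 0% of 11966 genes (1746 at an unadjusted p under 0.05). Groups did not overlap for 2 of 8 genes in the liver (16.4% of all genes), for 2 of 6 in WAT (41.2%) and for none of 5 in muscle (7.4%).

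Hepatic Apoa4 read 1666, 3065, 2211 and 2938 CPM after RYGB and 603, 661, 1390 and 612 CPM after Sham surgery. Every RYGB library lay above Sham 3, which stood apart from the other Sham libraries. The means of 2470 ± 655 and 816 ± 383 CPM (SD, n = 4 each) differed by 1.65 on the log2 scale (SE 0.29, limma adjusted p = 0.0100), and it stayed called in every alternative run. The sum of 5 hepatocyte markers, all listed, was 79050 to 111729 CPM after RYGB and 75277 to 92413 CPM after Sham surgery.

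Apob, which the liver uses for very low density lipoprotein, read 6859, 7502, 10488 and 10602 CPM in the liver after RYGB and 6709, 6384, 6199 and 8756 CPM after Sham surgery, and the groups overlapped (log2 fold change 0.32, limma adjusted p = 0.398). Hepatic Fabp1 stood at 1789, 1456, 2266 and 2252 CPM after RYGB against 2284, 3637, 2965 and 3471 CPM after Sham surgery. The highest RYGB library lay just under the lowest Sham library, and the log2 fold change of -0.67 (SE 0.21) missed the threshold at an adjusted p of 0.0684. Mttp differed by -0.03 (95% confidence interval -0.34 to 0.28), Dgat1 by -0.04 (-0.34 to 0.26), Fabp2 by 0.30 (-0.13 to 0.73) and Scarb1 by 0.29 (0.05 to 0.53) on the log2 scale, none of them called.

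Cd36 in the liver read 201, 336, 489 and 295 CPM after RYGB and 75.4, 157, 312 and 189 CPM after Sham surgery. Its log2 fold change of 0.95 (SE 0.38) thus had the opposite sign to that in the gut, with overlapping groups and a limma adjusted p of 0.138. In muscle Cd36 read 581, 465, 958 and 381 CPM against 286, 209, 523 and 210 CPM (log2 fold change 0.97, SE 0.34, adjusted p = 0.233), and Sham 3 alone lay within the RYGB range. Paired by replicate number, which the labels do not state, the fit called Cd36 in both the liver and muscle. In the liver 4 of 7 leukocyte markers were listed, with a sum of 227 to 680 CPM after RYGB and 110 to 201 CPM after Sham surgery, and their part was not tested.

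Muscle Scarb1 was nearly the same in all libraries, at 22.3 to 26.3 CPM after RYGB and 20.8 to 27.5 CPM after Sham surgery, with an interval of -0.20 to 0.26 for its log2 fold change. Dgat1 (6.3 to 15.5 CPM), Mttp (5.0 to 11.3 CPM) and Npc1l1 (0.8 to 2.5 CPM) were low in muscle and overlapped between the groups.

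WAT held the highest Cd36 of the 6 tissues, 6018 ± 1653 CPM (SD, n = 4) after Sham surgery, again set beside separately normalized tables. It read 3620, 3473, 3073 and 1660 CPM after RYGB and 4449, 4773, 7759 and 7091 CPM after Sham surgery. The groups did not overlap, and the log2 fold change of -1.05 (SE 0.37) had a limma adjusted p of 0.0514, just outside the threshold.

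Scarb1 in WAT read 172, 208, 168 and 162 CPM after RYGB and 244, 226, 424 and 341 CPM after Sham surgery. All RYGB libraries were lower, and the log2 fold change was -0.75 (SE 0.20, limma adjusted p = 0.0206). The call was lost without RYGB 3 (adjusted p = 0.0542), without Sham 4 (adjusted p = 0.0576), and with the lane as a covariate, where the log2 fold change was -0.57. Adipocytes and capillary endothelium both carry Cd36. The sum of 5 adipocyte markers was 2998 to 5759 CPM after RYGB and 7040 to 8413 CPM after Sham surgery. That of 5 capillary endothelial markers was 4935 to 8603 against 9040 to 17216 CPM, mainly Fabp4 (4046.5 to 7614 against 7498 to 14431 CPM). Fabp4 is also a gene of adipocytes, so this sum does not stand for endothelium alone. Pecam1, Cdh5, Kdr and Gpihbp1 were lower in all RYGB than in all Sham libraries. The sum of 7 leukocyte markers was 1335 to 2658 against 776 to 1346 CPM, with 4 genes called higher and 2 lower. Ptprc, Cd3e, Cd79a and Ms4a1 were higher in all RYGB libraries. Cd68 (77.9 to 156 against 202.3 to 354.5 CPM) and Adgre1 (42.6 to 139 against 152 to 349 CPM) were lower in all of them. All these markers were listed. Their part in the differences of Cd36 and Scarb1 was not tested.

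Dgat1, which completes triglyceride in adipocytes too, held 104 to 229 CPM in WAT after RYGB and 131 to 199 CPM after Sham surgery and did not pass the test (log2 fold change -0.06, interval -0.62 to 0.50). Mttp (4.8 to 6.1 CPM), Mogat2 (0.5 to 3.4 CPM) and Apoa4 (0.0 to 3.7 CPM) were at the lower end of the WAT table.

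**Figure D5:**
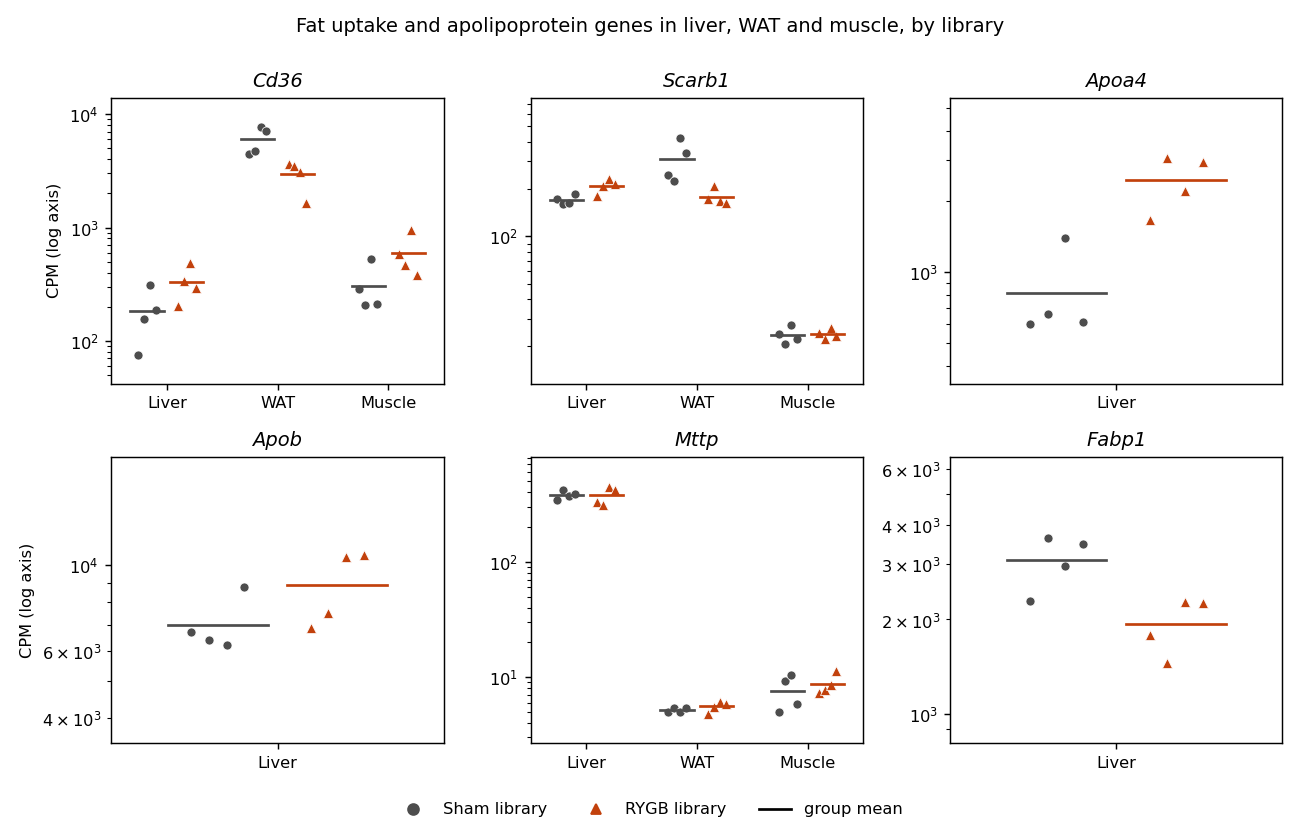
CPM (log axis) of Cd36, Scarb1, Apoa4, Apob, Mttp and Fabp1 in each library of the liver, WAT and muscle where the gene was listed (Apoa4 in the liver only), with Sham libraries as circles, RYGB libraries as triangles and group means as lines. Hepatic Apoa4 is higher in all 4 RYGB libraries, and Cd36 and Scarb1 in WAT are lower in all 4.

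The pathway lists outside the gut held 7 called of 43 tested genes in the liver (4 higher and 3 lower, against 7.08% of all genes). In WAT they held 1 of 33 (against 24.1% of all genes), which was Creb3l3 (log2 fold change -0.78, limma adjusted p = 0.00629). Creb3l3 was near the lower limit of the WAT table, at 1.275 CPM after RYGB and 2.925 CPM after Sham surgery (means, n = 4 each). Limma called none of 28 in muscle (10 had an unadjusted p under 0.05). Hepatic genes that rose were Soat1, which esterifies cholesterol (log2 fold change 1.13, adjusted p = 0.0234), Gpat3, an acyltransferase of glycerolipid synthesis (1.10, adjusted p = 0.0234), the triglyceride lipase Pnpla2 (0.66, adjusted p = 0.0158) and Apobec1 (0.64, adjusted p = 0.0221). Those that fell were Apoc3, an apolipoprotein that slows triglyceride clearance (by 0.70, adjusted p = 0.0497), Acsl5 (by 0.65, adjusted p = 0.0430) and the acyl-CoA binding protein gene Dbi (by 0.63, adjusted p = 0.0437). Apobec1 was thus higher after RYGB in the liver and in the jejunum. The labels do not state whether the same mice gave both tissues, so these 2 calls may not be independent.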

How the data were processed

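The deposited values were used as 1 table per tissue with 1 column per library of the 48 libraries. The authors deposited CPM (counts scaled to a fixed library total), rounded to 0.1 CPM, and the unit was settled from the values: with 1 line kept per gene, columns summed to between 925122 and 998777. In the jejunal and ileal tables, and for liver Sham 4, the deposited columns also held repeated or incomplete lines, so they were recorded as a score until 1 line was kept per gene; 12 incomplete liver lines were left out. The submitters' processing notes name HTSeq and GRCm38, the labels name a stranded mRNA library kit, and the aligner and the counting strand are not given in the sources used here. Total counts were not used here, so the depth is unknown and limits genes under about 1 CPM most.

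For each tissue, limma 3.58.1 (R 4.3.3, empirical Bayes with a trend) set RYGB against Sham on log2(CPM + 1), using the genes that averaged at least 1 CPM. The Benjamini-Hochberg adjustment ran over all genes of a tissue, and a gene was called when its adjusted p was under 0.05 and it differed at least 1.5-fold. Summaries used pandas 2.3.3, numpy 2.4.6 and matplotlib 3.10.9 under Python 3.11.15. The fit was tested on simulated data. Alternatives were a pseudocount of 0.1 CPM, no minimum, a minimum mean of 10 CPM, median ratio scaling, a replicate block, the sequencing lane as a covariate (liver, WAT and muscle), each library left out, and, chosen after seeing the data, only the duodenal libraries with at least 100 CPM of Slc40a1. Genes named are the 10 members, the pathway genes called in a segment, those called in another tissue (named after their values were seen, as were Slc27a4, Plin2 and Hnf4a), marker genes, and for each member the gene with the highest correlation over the intestinal libraries. A gene of the pathway lists is not reported here and was left out of their counts. The members and lists were chosen with earlier results of these data known. Gene coordinates are those of GENCODE M21 on GRCm38.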

Additional observations from a re-analysis of the deposited data

Results flagged for a closer look

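A library stood apart from the rest of its group, by Dixon's test on log2(CPM + 1) at its 95% critical value, in 5 of 78 groups checked, where chance gives about 3.9. Only groups of at least 4 libraries were checked, which left out the RYGB groups of the duodenum and jejunum (3 libraries each). The ratio is the gap to the nearest other library over the range of the group. It was 0.862 for Scarb1 in jejunal Sham (Sham 2 at 41.5 CPM, highest), 0.916 for Mogat2 in jejunal Sham (Sham 1 at 454 CPM, lowest), 0.719 for Npc1l1 in ileal Sham (Sham 4 at 3947 CPM, highest), 0.891 for Apoa4 in liver Sham (Sham 3 at 1390 CPM, highest) and 0.918 for Dgat1 in muscle Sham (Sham 3 at 15.5 CPM, highest).

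The direction of Apoa4 differed between tissues. Every hepatic RYGB library lay above every Sham library, and every duodenal and jejunal RYGB library lay below. The log2 fold change of the liver exceeded that of the duodenum by 2.20 and that of the jejunum by 3.12. These differences between tissues were not tested, because each tissue was fitted on its own.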

How the results depend on the processing

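The members called numbered 2 of 10 in the jejunum (1 to 3 with single libraries left out, 1 under median ratio scaling and 1 with the replicate block), 3 of 10 in the ileum (2 to 3), 0 in the duodenum (0 to 1), 1 of 8 in the liver (2 under scaling and 2 with the block), 1 of 6 in WAT (0 to 1, 2 at a mean of at least 10 CPM, 2 under scaling and 2 with the block) and 0 in muscle (1 with the block). Pathway genes called numbered 7 in the jejunum (2 to 7 with single libraries left out), 1 in the ileum (0 to 2, 3 under scaling), 0 in the duodenum (0 to 5, 2 with the block, 2 among libraries rich in Slc40a1), 7 in the liver (2 to 8), 1 in WAT (1 to 2, 0 at a mean of at least 10 CPM, 2 under scaling, 2 with the block and 4 with the lane) and 0 in muscle (0 to 1, 4 with the block). Counts over all genes moved too, in the duodenum from 1 to 757 without Sham 4, to 268 with the block and to 289 among libraries rich in Slc40a1, in muscle from 0 to 184 with the block and to 210 without RYGB 4, and in the liver from 836 to 1236 with the block (329 to 1204 with single libraries left out). The cause of these shifts was not tested. The labels do not state that replicate numbers pair the libraries, and the values did not settle it. Same-numbered libraries correlated between -0.28 and 0.39 in their deviations, and no tissue had all above 0.1. Libraries that correlated best with their own number were 6 of 8 in the liver, 5 of 10 in the ileum and 3 of 8 in WAT. In the other tissues they were 1 of 8 in muscle, 1 of 6 in the jejunum and 0 of 6 in the duodenum. The candidates for each library were all libraries of the other surgery group. These numbered 4 in the liver, WAT and muscle, 5 in the ileum, and 3 or 4 in the jejunum and duodenum. The paired fit (replicate block) took Fabp1 in the ileum to an adjusted p of 0.0596 and Apoa4 in the jejunum to 0.0677, and brought Cd36 in the liver (0.00961) and in muscle (0.00795) past the threshold.

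Median ratio scaling moved the median of all genes from 0.12 to 0.00 in the duodenum, from 0.13 to -0.01 in the liver and from 0.11 to 0.00 in WAT, and under it hepatic Fabp1 (log2 fold change -0.82, adjusted p = 0.0481) and WAT Cd36 (-1.16, adjusted p = 0.0496) were called. Signs turned only for log2 fold changes that were not called. Under scaling these were Mogat2 in the duodenum (-0.12), Mttp in WAT (-0.016) and Scarb1 in muscle (-0.032). With the lane they were Mogat2 in WAT (-0.10) and Dgat1 in muscle (0.26), and Dgat1 in muscle also turned at a pseudocount of 0.1 CPM (0.000173). With single libraries left out the ranges crossed 0 for Mogat2 (-0.048 to 0.065) and Apob (-0.24 to 0.11) in the duodenum, Fabp1 in the jejunum (-0.49 to 0.17), Mttp (-0.12 to 0.055) and Dgat1 (-0.10 to 0.069) in the liver, Dgat1 in WAT (-0.22 to 0.16), and Dgat1 (-0.11 to 0.27), Scarb1 (-0.026 to 0.10) and Npc1l1 (-0.19 to 0.13) in muscle.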

Other observations

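Markers of position and cell type also differed between the groups of villi. Jejunal Lct read 1448, 1499 and 1640 CPM after RYGB and 5394, 3255, 5090 and 3436 CPM after Sham surgery, with no overlap. The sum of 5 Paneth cell markers, all listed, was 115 to 223 CPM after RYGB and 33.3 to 68.5 CPM after Sham surgery. In the duodenum the Paneth cell sum was 56.9 to 191 CPM after RYGB and 27.9 to 64.1 CPM after Sham surgery, and that of 6 crypt stem and cycling cell markers, of which 4 were listed, was 28.8 to 126 against 5.5 to 22.1 CPM, with no overlap. In the ileum Fabp6 read 41.5, 50.5, 47.4, 0.1 and 29.0 CPM after RYGB and 0.0, 11.2, 2.5, 22.9 and 0.0 CPM after Sham surgery, and Slc10a2 read 5.6, 11.1, 53.7, 1.6 and 7.1 against 0.2, 1.4, 1.4, 2.5 and 0.3 CPM. RYGB 4 held the least of both in its group, and it was also the RYGB library with the most Cd36 (122 CPM) and the most Fabp1 (8462 CPM). Slc51a, the other ileal marker, overlapped between the ileal groups, at 427 to 644 CPM after RYGB and 247 to 698 CPM after Sham surgery. Smooth muscle and pancreatic acinar markers were not among the genes listed for the 3 segments.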
